A study of Haematococcus lacustris with 7 samples.

Results

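The flagellar, axoneme and dynein sequences of *Haematococcus pluvialis* are the annotated sequences of the assembled transcriptome with at least 1 Gene Ontology (GO) term that names the axoneme, the cilium or flagellum, dynein, intraflagellar transport or the microtubule basal body. The rule looked for any of 7 words in a term's name (axonem, cilium, ciliary, flagell, dynein, intraflagellar and microtubule basal body). This gave 186 of 6812 annotated sequences (2.73%), in 172 of 6164 Trinity components. The annotated assembly was made from 7 RNA-seq libraries of 1 algal strain, with 1 library per condition. Aliquots of 1 culture received JA (jasmonic acid) at 25 mg/L for 1, 6 or 24 h or SA (salicylic acid) at 25 mg/L for 1, 6 or 24 h, and the control received neither. The table lists terms for the assembly as a whole and holds 0 columns of values per sample. Read depth, transcript levels and the comparisons of JA and SA with the control are therefore not analysed here. The values below are complete counts of a table with no replicates, so they are given without an error, and no difference between groups of sequences was tested.

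In green algae the flagellum is built on an axoneme, a cylinder of microtubule doublets that grows from a basal body. Dynein arms fixed to the doublets bend it. Dyneins are built on heavy chains, very large proteins that bind and hydrolyse ATP and walk along microtubules. Smaller chains, such as intermediate or light chains, go with them and bear no motor domain of that kind. Intraflagellar transport carries building blocks to the tip and back, and the BBSome, a coat-like complex, moves membrane proteins of the cilium. *H. pluvialis* has swimming cells with a pair of flagella and cysts that lack them, the cysts being the form known for astaxanthin.

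The members entered by different words of the rule, which is a description of the choice and not a finding. A term that names the axoneme, cilium or flagellum was listed for 173 of the 186 sequences (93.0%), and 13 sequences (6.99%) entered through dynein terms alone. No sequence entered through the basal body term alone. The word cilium also matches stereocilium, the actin-based projection of inner ear cells, in 1 term on comp748773_c0_seq1_8, but that sequence listed cilium as well. The 27 matching terms gave 461 pairs of sequence and term. Of the 27 terms, 17 name cellular components, 8 biological processes and 2 molecular functions.

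Dynein terms were on 145 of the 186 sequences (78.0%, 133 components), a count that follows from the rule, which used this word. Dynein complex was the term on the most sequences, with 118. It was followed by cilium with 95, cilium axoneme with 68 and flagellum with 67. Axonemal dynein complex was listed for 25 sequences and ciliary or flagellar motility for 20. Flagellar axoneme and microtubule basal body had 13 sequences each, axoneme had 6 and microtubule-based flagellum 5. The remaining 17 terms were on 1 to 4 sequences each, 6 of them on 1 sequence. By role, 92 sequences had a term for the axoneme, 22 for motility, 13 for the basal body and 2 for intraflagellar transport. A term for assembly, organization or morphogenesis was on 8. Of these, comp748773_c0_seq1_8 was counted through the stereocilium term alone. A term for sensory, nonmotile or primary cilia was on 5. Of these, comp1381475_c0_seq1_2 was counted through motile primary cilium, its only matching term.

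**Figure D1:**
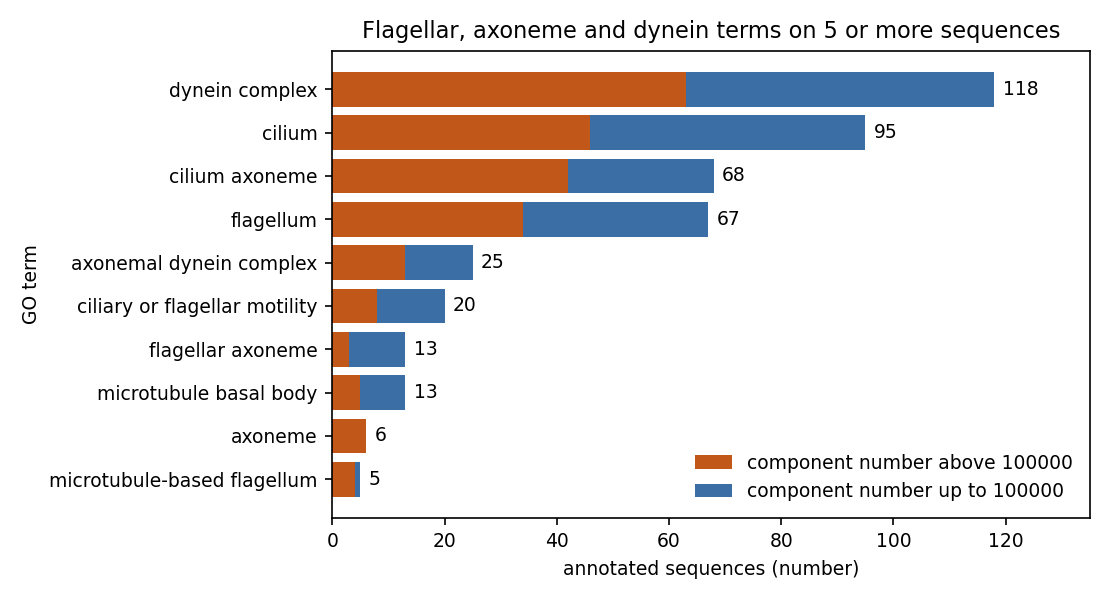
The x axis gives the number of annotated sequences and the y axis the 10 terms listed for 5 or more sequences. Colours divide each bar by Trinity component number (above 100000, or up to 100000), and the number at the end is the total, from 118 for dynein complex to 5 for microtubule-based flagellum.

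The terms for the place in the cell came in fixed combinations. Each of the 67 sequences with flagellum also listed cilium, and each of the 13 sequences with flagellar axoneme did so too. In contrast, 0 of the 68 sequences with cilium axoneme listed cilium or flagellum. Dynein complex and axonemal dynein complex never stood together. Each of the 20 sequences with ciliary or flagellar motility listed axonemal dynein complex and cilium axoneme. With the matching terms alone, the 186 sequences fell into 30 combinations, and 115 sequences (61.8%) had one of the first 3.

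These 3 combinations, all of dynein, also differed in terms that had not been used to find the sequences. Both kinds of term came from the same annotation of each sequence, so these differences are not independent of the combinations. Dynein complex with cilium and flagellum was listed for 53 sequences in 46 components. Of these, 43 had ATP binding, ATPase activity and cell projection organization, a term for building outgrowths of the cell, and 0 had cytoplasm. Dynein complex with cilium axoneme was listed for 42 sequences in 42 components. Here 36 had ATP binding, 28 ATPase activity, 3 cell projection organization and 41 cytoplasm. Axonemal dynein complex with cilium axoneme and motility was listed for 20 sequences in 19 components. Of these, 20 had ATP binding, 9 ATPase activity, 0 cell projection organization and 20 cytoplasm. Within these combinations, cytoplasm was listed only beside cilium axoneme, and cell projection organization mostly beside cilium and flagellum.

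Counted with all their terms, many sequences were identical. The 186 sequences held 55 sets of terms, of which 32 were on 1 sequence each. A set shared with another sequence was found for 154 members (82.8%), compared with 4534 of the other 6626 annotated sequences (68.4%). Among the 95 sequences outside the set with a microtubule, tubulin or kinesin term, 59 (62.1%) shared a set within that group. The first set covered 35 sequences in 32 components and named dynein complex, cilium, flagellum, microtubule, microtubule motor activity, microtubule-based movement, ATP binding, ATPase activity and cell projection organization. The second covered 25 sequences in 25 components, with cilium axoneme in place of cilium and flagellum, and with cytoplasm in place of cell projection organization. These 2 sets held 60 members (32.3%), and the first 5 sets held 87 (46.8%). Pieces of 1 gene and different genes of 1 family cannot be told apart in the table, so sequences with the same set are not separate genes by count.

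**Figure D2:**
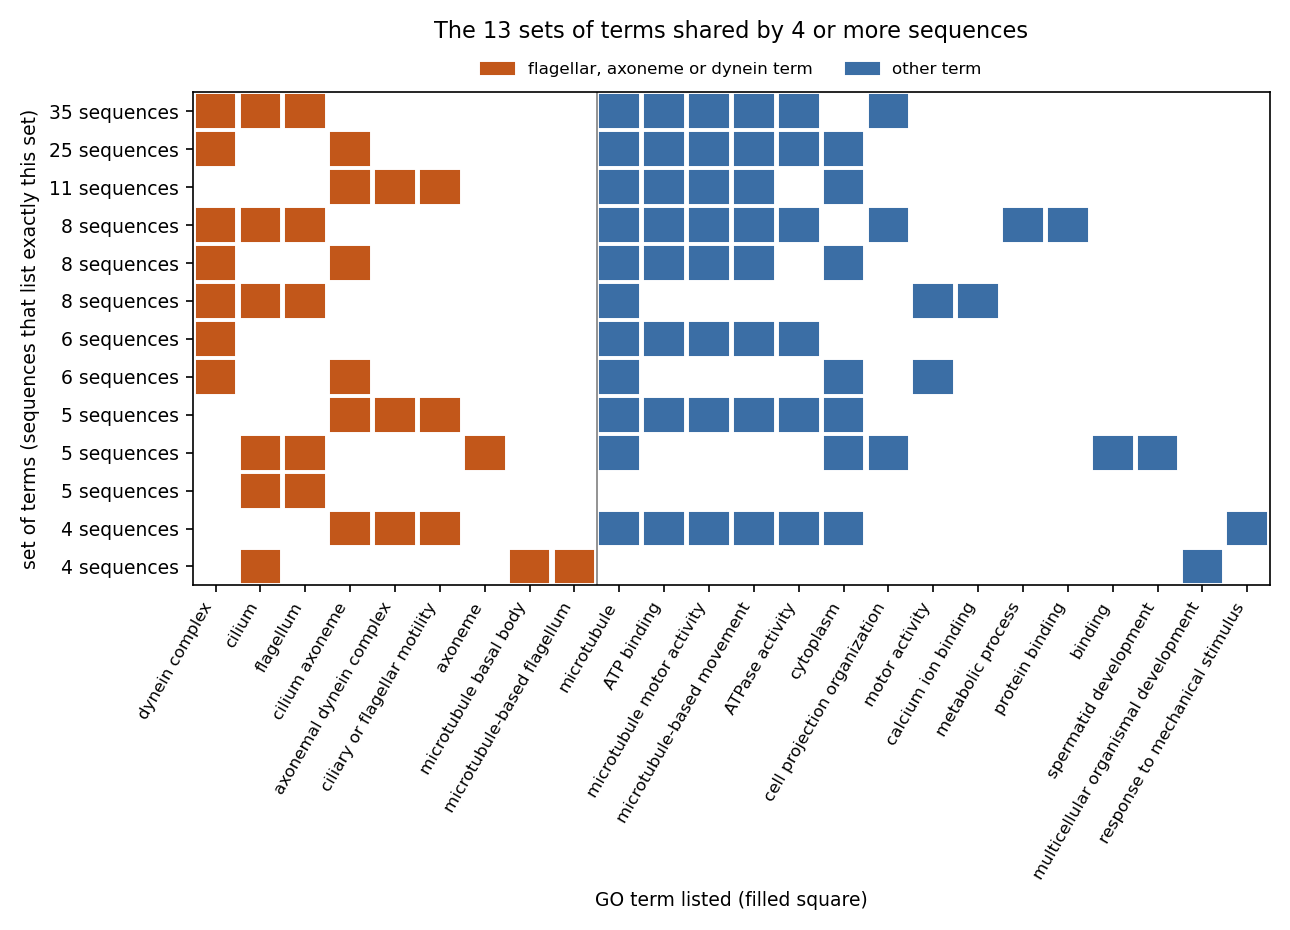
Each row is a set of terms listed in exactly that form by 4 or more sequences, with their number on the y axis, and each column on the x axis is a term. Orange squares mark flagellar, axoneme or dynein terms and blue squares other terms. The first row stands for 35 sequences and the second for 25, and no row has both motor activity and ATP binding.

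Motor terms divided the dynein sequences. ATP binding was listed for 115 of the 145 (79.3%, 109 components). All 115 also listed microtubule motor activity, the term for a motor that moves along microtubules, and 0 listed the broader motor activity. ATPase activity was on 93 of the 115, and ATPase activity, coupled, on 3 more, which left 19 with ATP binding and neither ATPase term. Nucleotide binding and hydrolysis are properties of dynein heavy chains. The table does not name the chains, so these sequences are not assigned to one.

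The other 30 dynein sequences (20.7%, in 24 components) had no ATP binding term. Motor activity was listed for 25 of them, microtubule motor activity for 3, and neither for 2. They held 13 sets of terms. The most frequent, on 8 sequences in 4 components, joined calcium ion binding with dynein complex, cilium and flagellum. Of these, 4 came from comp61661_c0 and 2 from comp59649_c0. A set of 6 sequences in 6 components had cilium axoneme, dynein complex, motor activity, microtubule and cytoplasm and no further term. Flagellar axoneme was on 8 sequences in 6 components, among them 3 sequences of comp56737_c0 that also listed protein binding. Cell redox homeostasis and electron transport chain stood beside dynein complex on comp57131_c0_seq3_19 and comp57978_c0_seq2_21. In the alga *Chlamydomonas*, light chains of outer arm dynein include a calcium-binding protein of the calmodulin family and thioredoxin-like proteins. Whether these sequences encode such chains was not tested. A further sequence, comp54019_c0_seq1_10, joined GTP binding and small GTPase mediated signal transduction with dynein complex, flagellar membrane and microtubule basal body.

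A few dynein sequences carried terms for roles outside the axoneme. Cytoplasmic dynein complex was listed once, for comp1185609_c0_seq1_4, with centrosome, endocytic vesicle and chromosome organization among its 13 terms. The same 36 terms were listed for comp1018993_c0_seq1_2 and comp1307870_c0_seq1_4, which had dynein complex, mitosis, kinetochore, Golgi apparatus and mitochondrion transport along microtubule beside terms of the insect ovary such as fusome. Cytoplasmic dyneins are motors that move towards microtubule minus ends. These 3 sequences were the only members with ATPase activity, coupled, and 0 of them listed a term for cilium, flagellum or axoneme. The sequence with the most terms, comp59269_c0_seq1_9 with 48, listed dynein complex and dynein complex binding beside tubulin deacetylase activity, histone deacetylase activity and aggresome. Tubulin deacetylases remove acetyl groups from alpha-tubulin.

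The 41 sequences without a dynein term (22.0%, 39 components) were more varied, with 25 sets of terms, 18 of them on 1 sequence. Intraflagellar transport was listed for comp63218_c0_seq2_17 and comp63218_c0_seq6_17, which share a component and listed cilium, axonemal microtubule, protein polyglutamylation, binding and transporter activity. Polyglutamylation is the addition of glutamate side chains to tubulin, common on axonemal microtubules. Radial spoke, the structure that links doublets to the central pair, was on 1 sequence in the whole table, comp65698_c1_seq1_52, with flagellar axoneme and cytoskeleton.

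BBSome was listed for 3 sequences in the table, all of them members. Of these, comp62212_c0_seq12_31 and comp62212_c0_seq8_32 share a component and the same 40 terms. They had the most matching terms, 7 each, and these included regulation of cilium beat frequency involved in ciliary motility, positive regulation of flagellum assembly, sensory cilium assembly and nonmotile primary cilium. They also listed dynactin binding, centriolar satellite and heart looping. The third, comp63187_c1_seq1_38, had cilium membrane, photoreceptor connecting cilium and centriole among its 7 terms.

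The basal body term was on 13 sequences in 12 components. Of these, 4 had cilium, microtubule-based flagellum and multicellular organismal development as their only other terms, and 1 of them was comp65888_c0_seq2_140. Tubulin-tyrosine ligase activity, which restores the end of alpha-tubulin, was listed with the basal body for comp1353470_c0_seq1_3. Centriole, centriole replication and mitosis were listed with it for comp865107_c0_seq1_1. Cilium assembly was on 4 sequences, among them comp54260_c0_seq1_8 with GTP binding and small GTPase mediated signal transduction, and comp823046_c0_seq1_6 with axonemal dynein complex. Cilium and flagellum were the only terms of 5 sequences. By contrast, comp1001734_c0_seq1_3 had cilium beside terms of the proton-transporting ATP synthase, an enzyme of the mitochondrial inner membrane, and of nematode development.

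Terms that had not defined the set, but came from the same annotation, were then compared with the rest of the table. A microtubule, tubulin or kinesin term was listed for 156 of the 186 members (83.9%) and for 95 of the other 6626 sequences (1.43%). The members comprised 142 of the 145 dynein sequences (97.9%) and 14 of the 41 without a dynein term (34.1%). Microtubule motor activity was on 121 members and 19 others, so that members made up 86.4% of the sequences with this term. Of these 121 members, 118 were dynein sequences. Microtubule-based movement was on 114 members, 113 of them dynein sequences, and on 51 others. Cell projection organization was on 63 members and 0 others, and it was listed for 50 of the dynein sequences and 13 of those without a dynein term.

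The 95 microtubule, tubulin or kinesin sequences outside the set, chosen by these words, served as a second comparison. ATP binding was listed for 120 members (64.5%), 37 of these 95 (38.9%) and 1797 of all 6626 others (27.1%). Among the members it was on 115 of the 145 dynein sequences (79.3%) but on 5 of the 41 without a dynein term (12.2%). ATPase activity was on 93 members (50.0%), all of them dynein sequences, 1 of the 95 (1.05%) and 91 of all others (1.37%). GTP binding, a property of tubulin, was on 2 members (1.08%), 37 of the 95 (38.9%) and 388 of all others (5.86%). Nucleus was on 3 members (1.61%), 24 of the 95 (25.3%) and 914 of all others (13.8%). Calcium terms were on 11 members (5.91%), 0 of the 95 and 130 of all others (1.96%). These 11 members came from 7 components, and 8 of them were dynein sequences.

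Other lists had few members, and few of the 95 other microtubule sequences as well. Plastid terms were on 0 members, 0 of the 95 and 746 of all others (11.3%), and ribosome terms on 0 members, 0 of the 95 and 557 of all others (8.41%). Mitochondrial terms were on 3 members (1.61%), 2 of the 95 (2.11%) and 769 of all others (11.6%). Kinase terms were on 1 member (0.538%), 3 of the 95 (3.16%) and 416 of all others (6.28%), and that member, comp1056067_c0_seq1_5, listed protein serine/threonine kinase activity with cilium. Folding, ubiquitin and cyclic nucleotide terms were on 1 member (0.538%) and 1 of the 95 (1.05%) each. Over all others the shares were 3.7% for folding, 2.72% for ubiquitin and 0.619% for cyclic nucleotide terms, the last close to that of the members. A member had a median of 8 terms (quartiles 6 and 9), compared with 7 for the 95 (quartiles 5.5 and 9.5) and 5 for all others (quartiles 4 and 7). Without the matching terms the median of the members was 6. The 7 of the 95 still counts the terms that chose them, so these 2 medians are not compared.

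**Figure D3:**
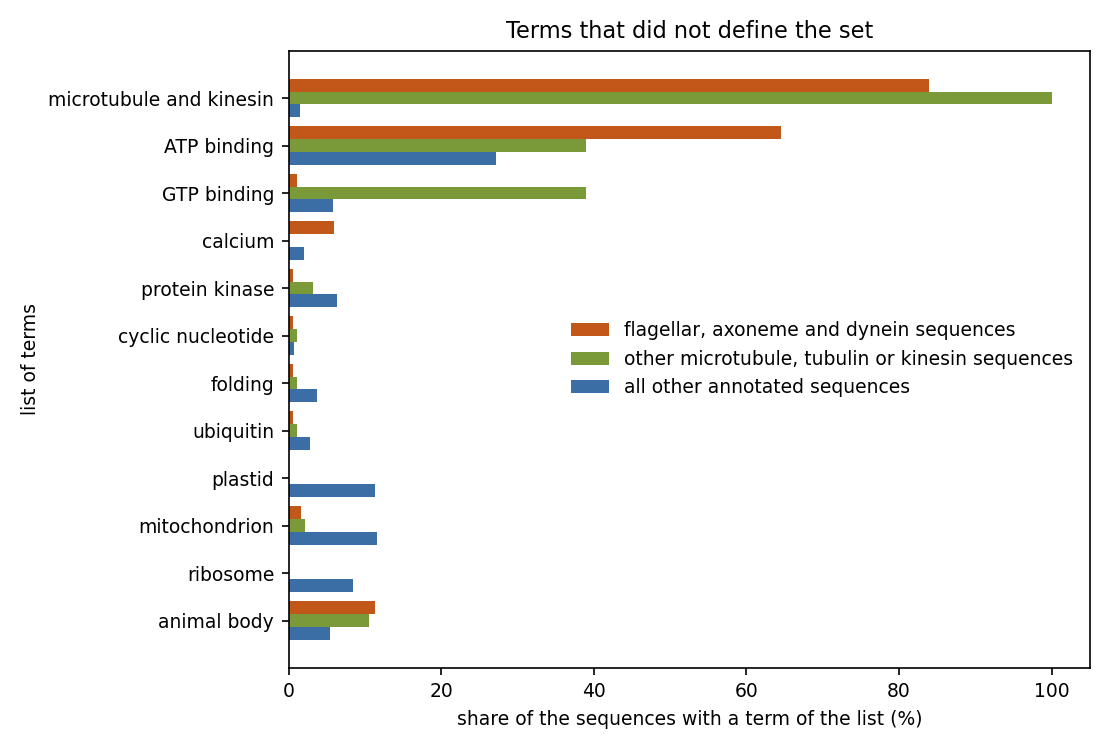
The x axis gives the share of sequences (%) with at least 1 term of each list, and the y axis the 12 lists of terms that did not define the set. Bars show the 186 flagellar, axoneme and dynein sequences, the 95 microtubule, tubulin or kinesin sequences outside the set, and all 6626 other annotated sequences, in which the 95 are included. ATP binding reached 64.5% of the members and 38.9% of the 95, while plastid and ribosome terms were at 0 in both.

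Terms for animal bodies were on 21 members (11.3%), 10 of the 95 other microtubule sequences (10.5%) and 354 of all others (5.34%). They were listed for 18 of the 41 members without a dynein term (43.9%) and for 3 of the 145 with one (2.07%). These counts depend on the word list, which left out multicellular organismal development. That term was on 5 dynein sequences and 5 other members. Spermatid development had 7 members and spermatogenesis 6. The alga has no sperm of the animal kind, but the sperm tail is itself a flagellum. Of the 21 members, 17 had a component number above 100000. All 5 sequences with axoneme, cilium, flagellum and spermatid development were among these 17. Such a number was found for 54.3% of all members and 50.2% of all others. The 354 others with animal body terms were not divided in this way, and the origin of these sequences was not tested.

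The number of the Trinity component and the last number of the identifier were not used to find the members. The last number is taken here as the number given to a predicted reading frame, not as a count of frames. A component number above 100000 was found for 101 members (54.3%), 36 of the 95 other microtubule sequences (37.9%) and 3328 of all others (50.2%). Among the 10 terms on 5 or more members the share ran between 3 of 13 sequences (23.1%) for flagellar axoneme and 6 of 6 for axoneme. It was 5 of 13 (38.5%) for microtubule basal body, 8 of 20 (40%) for ciliary or flagellar motility, 42 of 68 (61.8%) for cilium axoneme and 4 of 5 for microtubule-based flagellum. For the other 4 terms it lay between 48.4% and 53.4%. Above 100000, each of the 101 members was in a component of its own, as was each of the 3328 other sequences. Up to 100000, the 85 members were in 71 components and the 3298 others in 2664.

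Over all component numbers, the median of the last number was 6 for members and 6 for the others. The 3 highest in the whole table, 197, 179 and 162, belonged to comp65903_c0_seq5_197, comp65903_c0_seq4_179 and comp65903_c0_seq2_162, which share 1 component and the first set of terms. The next was comp65888_c0_seq2_140, with the basal body term and a last number of 140. Of the 10 highest in the table, 6 were members, in 4 components, and the other two of these 6 were the dynein sequences comp65694_c0_seq1_102 and comp65923_c1_seq1_100. Of the 20 highest, 7 were members. Among component numbers up to 100000, the median was 20 for members (quartiles 9 and 39) and 13 for the others (quartiles 7 and 26). It was 21 for dynein sequences with ATP binding, 19 for those without and 25.5 for members without a dynein term. Above 100000 it was 3 for members and 3 for the others.

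**Figure D4:**
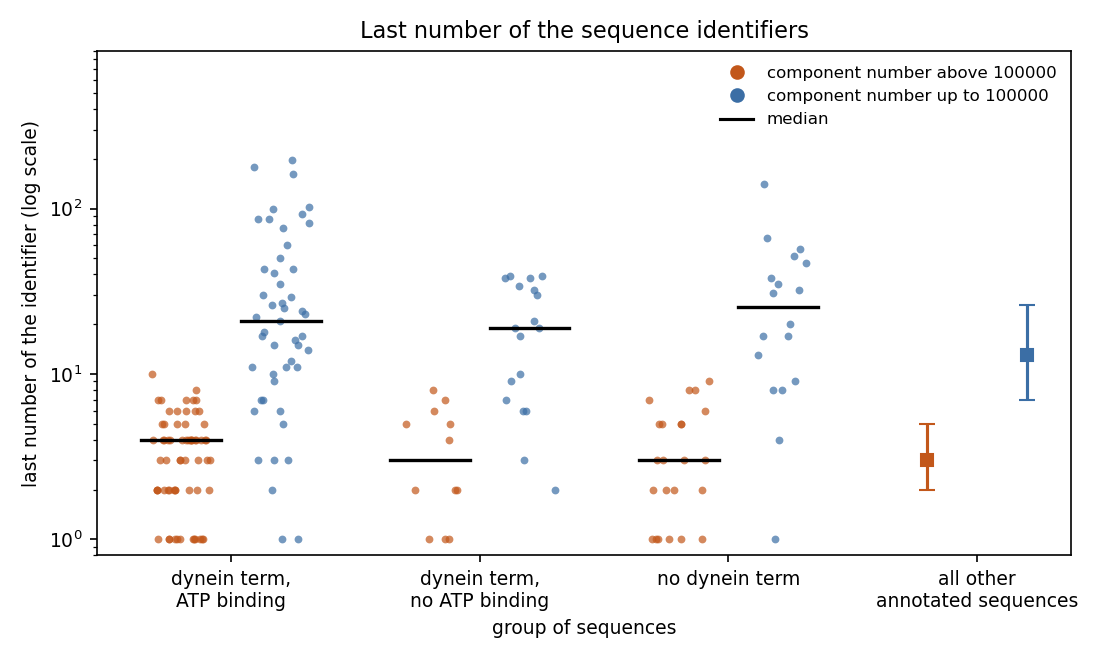
The y axis, on a log scale, gives the last number of the identifier, and the x axis 3 groups of members and all other annotated sequences. Points are sequences and black lines medians. Squares with bars are the median and quartiles of the 6626 others, and colours divide component numbers at 100000. The highest point, 197, is a dynein sequence with ATP binding.

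More than 1 member was found in 10 of the 172 components, which held 24 sequences, and 0 other annotated sequences were in any component with a member. In 8 of the 10 the members had identical terms. In comp51982_c0 and comp63441_c0 the 2 members differed in terms. Components with different endings could also agree, as in comp65504, where 3 sequences in the components c0, c1 and c3 all had the same 11 terms and last numbers of 14, 3 and 60.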

How the data were processed

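RNA of 7 aliquots of 1 culture was sequenced as paired-end reads. The authors built contigs from quality-filtered reads (Trinity), took predicted genes from the contigs (GetORF) and annotated them (Blastp, GoPipe). They deposited the result as 4 columns of text (identifier, GO identifier, term name, domain) with no counts or levels per sample. Genome build and library depth are not given in the table and were not used here.

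Members were found by words in term names, ignoring case, and terms naming bacterial-type flagella would not have counted. Sequences were counted by identifier, and components by the comp and c parts of it. Role lists and lists of other terms were word lists. The members and lists were chosen with earlier results of these data known. Some sequences, mainly those in groups of 5 or fewer, were named after their terms had been seen. The others follow a rule that takes the members with the most matching terms, the components with the most members and up to 4 members per role list. No test was run. The rule and the counts were tested on simulated data. Of 30548 reference genes of *Haematococcus lacustris*, 0 matched an identifier, so no gene names or sequences were taken from them. Counting was done in Python 3.11.15 with SciPy 1.17.1 for the intervals that served to compare alternatives, and figures were drawn with Matplotlib 3.10.9.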

Additional observations from a re-analysis of the deposited data

How the results depend on the processing

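Counts were taken as stable within 1.5 times the reported value, and shares within the 95% Wilson interval of the reported share, used only as a yardstick. For shares resting on 1 to 3 members this interval is wide, and staying within it says little. Of 57 values under the alternatives listed at the outset, 52 met this and 5 moved. Adding the words microtubule, kinesin, tubulin, centriole, centrosome and basal body raised the members to 307, by construction. Counting each Trinity component once took the intraflagellar transport word and role list to 1 each, since both sequences share a component. Without the members that entered through dynein terms alone, the shares with folding and with ubiquitin terms became 0 each, because comp59269_c0_seq1_9 held both, and the mitochondrial share became 0.578% but stayed within its interval. Of 4 alternatives chosen after seeing the data, 1 moved, namely the number of sets of terms, which was 30 with the matching terms alone. With 1 count per component the members were 172. The table gives no sequencing depth, and the part of depth in which sequences were assembled was not tested. No paired analysis was possible because the table holds no values per sample.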
